A study of Homo sapiens with 4 samples.

Results

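The chemokine transcripts of untreated HaCaT keratinocytes were examined through 10 genes chosen by name: CXCL1, CXCL2, CXCL3, CXCL10, CXCL11, CXCL14, CXCL16, CCL5, CCL20 and CX3CL1. All 10 were found by their symbols among 19233 protein-coding genes of 44591 genes in all. HaCaT is a spontaneously immortalized line of human epidermal keratinocytes, and the series holds 4 replicates of a single group, the cells without treatment, grown at 37 °C and 5% CO2 with 12% serum according to the labels. RNA was sequenced from each replicate as bulk RNA, and with no other group in the series every comparison was made between genes or between replicates. The study around these samples addressed resveratrol and radiation injury of the skin, and no treated or irradiated cells were analysed here. The labels do not say that the replicates came from separate cultures, while the study calls them biological repeats, so the spread between them may be in part technical.

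Chemokines are small secreted proteins that direct the movement of leukocytes through receptors on the cells they attract. Keratinocytes are a main source of them in skin. CXCL1, CXCL2 and CXCL3 draw neutrophils through CXCR2, CXCL10 and CXCL11 draw activated T cells through CXCR3, CCL5 draws T cells and monocytes, and CCL20 draws CCR6-bearing dendritic and T cells. CXCL16 and CX3CL1 are made as membrane-anchored proteins that bind CXCR6 and CX3CR1, and proteases shed them from the surface. CXCL14 is made by normal epidermis without a stimulus. The neutrophil-attracting genes are classic targets of NF-κB, and CXCL10, CXCL11 and CCL5 are also induced by interferons and by interferon regulatory factors.

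The promoters of the members are shown because those of CXCL1 to CXCL3 are similar in sequence, while the transcript levels of these genes are very different. RefSeq promoter windows (GRCh38.p14, bases counted back from the start of the gene) were matched for 7 of the 10 members, and those of CXCL16, CCL5 and CX3CL1 were not used here. In CXCL1, CXCL2 and CXCL3, printed below over the 150 bases before the start, the capitals mark an NF-κB-type match to GGANNTTCC.
CXCL1, chr4:73869243-73869392, plus strand: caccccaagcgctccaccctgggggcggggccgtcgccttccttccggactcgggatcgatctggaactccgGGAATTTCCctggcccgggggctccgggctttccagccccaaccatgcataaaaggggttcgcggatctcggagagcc
CXCL2, chr4:74099196-74099345, minus strand: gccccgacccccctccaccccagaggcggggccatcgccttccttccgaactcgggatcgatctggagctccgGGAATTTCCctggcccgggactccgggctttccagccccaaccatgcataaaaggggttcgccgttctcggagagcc
CXCL3, chr4:74038690-74038839, minus strand: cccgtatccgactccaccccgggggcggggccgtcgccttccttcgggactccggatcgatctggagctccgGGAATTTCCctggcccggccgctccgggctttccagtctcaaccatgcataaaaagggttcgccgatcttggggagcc
The match began 78 bases before the start in CXCL1 and CXCL3 and 77 bases before it in CXCL2, with the same 9 letters, GGAATTTCC, in all 3. Over these 150 bases CXCL1 was 88.7% identical to CXCL2 and 88.1% identical to CXCL3, and CXCL2 was 86.1% identical to CXCL3. The longest stretch without a difference was 42 bases between CXCL1 and CXCL2.

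CXCL10 and CXCL11 are printed over 250 bases. In CXCL10 the capitals mark, in order, an interferon response element core (GAAANNGAA), the GGANNTTCC form and a second NF-κB form (GGGACTTNC), and in CXCL11 they mark GGANNTTCC and a TATA box (TATAAA).
CXCL10, chr4:76023498-76023747, minus strand: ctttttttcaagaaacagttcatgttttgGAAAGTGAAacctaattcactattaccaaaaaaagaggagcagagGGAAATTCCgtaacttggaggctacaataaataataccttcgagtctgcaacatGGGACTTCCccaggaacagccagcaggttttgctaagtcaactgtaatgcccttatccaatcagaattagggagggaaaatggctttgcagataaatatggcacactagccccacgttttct
CXCL11, chr4:76036071-76036320, minus strand: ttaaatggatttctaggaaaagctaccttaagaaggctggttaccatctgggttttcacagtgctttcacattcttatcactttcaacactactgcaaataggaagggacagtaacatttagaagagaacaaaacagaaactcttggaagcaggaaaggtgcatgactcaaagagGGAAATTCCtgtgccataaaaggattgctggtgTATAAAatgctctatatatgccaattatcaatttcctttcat
These promoters were 47.5% identical over the last 150 bases, and their longest shared run was 8 bases. Searched on both strands of the 250 bases before each start, GGANNTTCC was present in 5 of the 7 matched members and in 3.84% of 35116 promoters. The 5 include CXCL1, CXCL2 and CXCL3, whose promoters are similar throughout, so they do not count as independent of one another. GGGACTTNC was present in 1 of 7 (CXCL10) and in 1.46% of all promoters, and GAAANNGAA in 3 of 7 (CXCL2, CXCL3 and CXCL10) and in 6.88%. TATAAA was present in CXCL11 and CCL20 and in 10.7% of all promoters. In the members no match overlapped that of another motif, and a match describes letters only.

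Before the members, the libraries were compared. The total counts of replicates 2 to 4 lay between 17056035 and 19745170, with 95.3% to 96.4% of counts on protein-coding genes, while replicate 1 had 73082279 counts, of which 76.1% were on protein-coding genes. Spearman correlations across protein-coding genes were 0.754 to 0.780 between replicate 1 and the rest and 0.944 to 0.967 among replicates 2 to 4, so replicate 1 stood apart and results resting on it are also given without it. Levels are given as TPM over protein-coding genes (read counts per length, scaled to the same sum in each library), and differences on the log2(TPM + 1) scale, which understates the change of low genes. All 12 keratinocyte markers were above a mean TPM of 1, with the basal keratins KRT14 at 6375 to 7642 TPM and KRT5 at 1920 to 5396 TPM. Reads are not tagged by molecule, so the intervals below cover counting error only. In bulk RNA, fewer cells of a type and less RNA per cell cannot be told apart.

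Over the 4 replicates, 7 of the 10 members had a mean TPM above 1, which was the limit used for a detected gene and was passed by 63.3% of protein-coding genes. The summed level of the 10 was 57.0, 264, 226 and 220 TPM in replicates 1 to 4. CXCL16 was first in replicates 2, 3 and 4, where it made up 59.2%, 48.4% and 64.1% of the sum, and CXCL1 was first in replicate 1 with 65.9%. CCL5 took 15.7% and 26.3% of the sum in replicates 2 and 3, but 1.32% in replicate 1 and 1.49% in replicate 4. CXCL2, CXCL14 and CX3CL1 stayed below a mean TPM of 1.

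**Figure D1:**
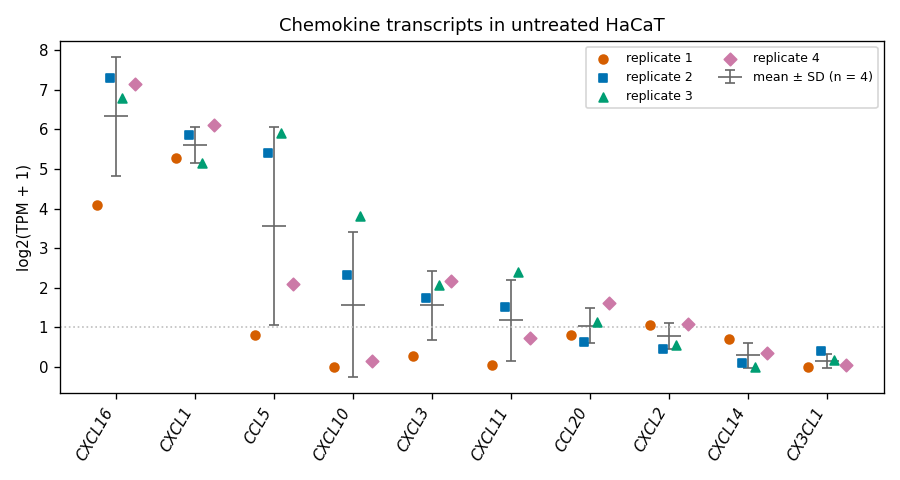
Levels of the 10 chemokine transcripts, ordered by mean TPM, as log2(TPM + 1) in each of the 4 replicates. Points are replicates, the grey mark and bar are the mean and SD of the log2 values, and the dotted line is a TPM of 1. CXCL16 and CXCL1 lead, while CCL5 and CXCL10 are high in replicates 2 and 3 and low in replicates 1 and 4.

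CXCL1 (chromosome 4, 74735109 to 74737019, plus strand, hg19), a neutrophil chemoattractant first described as a growth factor of melanoma cells, was at 37.6, 56.8, 34.8 and 67.9 TPM in replicates 1 to 4, from 1088, 450, 373 and 603 counts. Its mean was 49.3 ± 15.8 TPM (SD, n = 4). The highest level was in replicate 4 and the lowest in replicate 3, a range of 0.94 on the log2 scale. Among detected genes this range stood at the 37.3 percentile over 4 replicates and at the 74.0 percentile over replicates 2 to 4. The range was 2.34 when TPM was taken over all genes, where other RNA classes take part of replicate 1. CXCL3 (74902306 to 74904490, minus strand) was at 0.213, 2.34, 3.17 and 3.47 TPM from 6, 18, 33 and 30 counts, a mean of 2.30 ± 1.47 TPM (SD, n = 4). Replicate 1 was the low library for CXCL3, and without it the range fell from 1.88 to 0.42. CXCL2 (74962752 to 74964997, minus strand) was at 1.09, 0.374, 0.462 and 1.11 TPM from 32, 3, 5 and 10 counts, a mean of 0.761 ± 0.397 TPM (SD, n = 4). In replicate 2 CXCL2 was thus at the limit of 3 counts.

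The levels of these 3 neutrophil-attracting genes were far apart in each library in spite of the shared promoter letters printed above. Per kilobase, CXCL1 had 34.4 (95% Clopper-Pearson interval 24.2 to 50.5), 152 (51.6 to 738), 75.4 (32.0 to 234) and 61.0 (32.9 to 128) times the reads of CXCL2 in replicates 1 to 4. Against CXCL3 it had 176 times in replicate 1 (80.7 to 481), and 24.3 (15.2 to 41.4), 11.0 (7.69 to 16.2) and 19.5 (13.5 to 29.2) times in replicates 2 to 4. CXCL1 was therefore above both of its close relatives in 4 of 4 replicates, with every interval above 1. CXCL3 exceeded CXCL2 in replicates 2 to 4, by 6.24 (1.82 to 33.1), 6.86 (2.66 to 22.5) and 3.12 (1.48 to 7.15) times, and in replicate 1 the ratio was 0.195 (0.0666 to 0.473), on the other side of 1. The 3 genes are similar in their transcripts as well: of the 50-base words of the longest GENCODE 29 transcript, 5.73% in CXCL1, 9.24% in CXCL2 and 5.26% in CXCL3 were shared with another of the 3. How reads matching several genes were counted is not given in the sources used here, so the low levels of CXCL2 and CXCL3 beside CXCL1 are uncertain to that extent.

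On chromosome 4 these genes lie in a cluster with other CXC chemokines, in the order CXCL8, CXCL6, PF4V1, CXCL1, PF4, PPBP, CXCL5, CXCL3 and CXCL2. Mean TPM along it was 28.1, 9.51, 0, 49.3, 0.0439, 0, 0.115, 2.30 and 0.761. The high levels thus lay at the CXCL8 end, which holds the 4 plus-strand genes, among which PF4V1 was at 0. CXCL8, another CXCR2 ligand, was at 32.5, 30.0, 24.99 and 24.95 TPM in replicates 1 to 4. Per kilobase CXCL1 had 1.16 (1.07 to 1.25), 1.89 (1.64 to 2.19), 1.39 (1.20 to 1.61) and 2.72 (2.37 to 3.13) times the reads of CXCL8, higher in 4 of 4 replicates.

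CXCL10 (chromosome 4, 76942269 to 76944689, minus strand), an interferon-inducible T cell attractant, was at 0, 3.96, 13.1 and 0.110 TPM in replicates 1 to 4, from 0, 32, 143 and 1 counts. The mean of 4.29 ± 6.15 TPM (SD, n = 4) therefore rested on replicates 2 and 3. Against the limit of 3 counts in replicate 1, the level of CXCL10 was 39.0-fold higher in replicate 2 and 129-fold higher in replicate 3. These folds leave out the counting error of replicates 2 and 3 and are not lower bounds. With counting error in both libraries, the interval for replicate 2 against replicate 1 began at 29.9-fold. CXCL11 (76954835 to 76957350, minus strand), the ligand with the highest affinity for CXCR3, lies 10.1 kb away. It was at 0.0256, 1.87, 4.30 and 0.669 TPM from 1, 20, 62 and 8 counts, a mean of 1.72 ± 1.88 TPM (SD, n = 4). Like CXCL10, CXCL11 was highest in replicate 3 and next in replicate 2. Without replicate 3 the mean of CXCL10 was 1.36 TPM and that of CXCL11 was 0.856, below the limit of detection used here. The ratio of CXCL10 to CXCL11 per kilobase was 2.11 (1.17 to 3.90) in replicate 2 and 3.05 (2.25 to 4.17) in replicate 3, and in replicate 4 it was 0.165 (0.00372 to 1.23), from 1 and 8 counts. CXCL9, the other CXCR3 ligand, lies beside them and had 1 count in replicate 3 and 0 in the others. CXCL10 and CXCL11 lie within the span of ART3 on the opposite strand, which had 3, 0, 0 and 0 counts.

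CCL5 (chromosome 17, 34198495 to 34207377, minus strand) was at 0.753, 41.5, 59.4 and 3.27 TPM in replicates 1 to 4, from 24, 362, 700 and 32 counts. Its mean was 26.2 ± 28.9 TPM (SD, n = 4), the SD exceeded the mean, and without replicate 3 the mean was 15.2. Replicates 2 and 3 were high and replicates 1 and 4 low: CCL5 was 12.7 times higher in replicate 2 than in replicate 4 (8.82 to 18.8), and 18.1 times higher in replicate 3 than in replicate 4 (12.7 to 26.7). Replicate 4 in turn was 4.35 times above replicate 1 (2.48 to 7.72). An antisense gene over CCL5 had 1 to 4 counts, and 17.5% of the 50-base words of the longest CCL5 transcript occur in transcripts of other genes, so reads from those stretches are uncertain. CCL20 (chromosome 2, 228678558 to 228682280, plus strand) was at 0.733, 0.536, 1.19 and 2.07 TPM from 15, 3, 9 and 13 counts, a mean of 1.13 ± 0.684 TPM (SD, n = 4). The ratio of replicate 4 to replicate 3 was 1.74 (0.689 to 4.62), so no difference between them was detectable at this depth.

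CXCL16 (chromosome 17, 4636824 to 4643223, minus strand) was the highest member on average, at 16.0, 156, 109 and 141 TPM in replicates 1 to 4 from 934, 2499, 2355 and 2525 counts. Its mean was 106 ± 63.0 TPM (SD, n = 4), at the 86.6 percentile of detected protein-coding genes. Replicates 2 to 4 lay close together, and replicate 1 alone was low, by 9.78 times against replicate 2 (9.07 to 10.6) and by 8.82 times against replicate 4 (8.18 to 9.51). Without replicate 1 the range fell from 3.21 to 0.52 on the log2 scale. CXCL16 overlaps the end of MED11, a Mediator subunit gene on the opposite strand, which had 1307, 141, 197 and 270 counts, and without stated use of strand reads of the overlap cannot be assigned. CX3CL1 (chromosome 16, 57406373 to 57418960, plus strand), the other membrane-anchored chemokine, had 0, 7, 4 and 1 counts, a mean of 0.123 ± 0.141 TPM (SD, n = 4). CXCL16 was therefore the main transcript of this kind in every replicate.

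CXCL14 (chromosome 5, 134906369 to 134914969, minus strand) was at 0.625, 0.0762, 0 and 0.272 TPM in replicates 1 to 4, from 30, 1, 0 and 4 counts. Its mean was 0.243 ± 0.279 TPM (SD, n = 4). Replicate 1 was the highest, the reverse of CXCL16 and CCL5, and without it the mean was 0.116, below that of CX3CL1 (0.164). In replicate 3 the limit of 3 counts corresponded to 0.169 TPM. CXCL14 and CX3CL1 thus had 7 counts or fewer in each of replicates 2 to 4.

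In the order of mean TPM, the members ran CXCL16, CXCL1, CCL5, CXCL10, CXCL3, CXCL11, CCL20, CXCL2, CXCL14 and CX3CL1. The 9 neighbouring pairs were compared by a two-sided exact sign-flip permutation test with Benjamini-Hochberg adjustment over the 9. Its smallest possible p with 4 replicates is 0.125, so it could call no pair, and the differences are given with their spread. In 2 pairs the mean difference exceeded its SD with the same order in every replicate. CCL5 was above CXCL10 in 4 of 4 replicates, by 1.99 ± 0.94 on the log2 scale (SD, n = 4, exact p = 0.125, adjusted p = 0.5625). CXCL2 was above CXCL14 in 4 of 4, by 0.50 ± 0.18 (SD, n = 4, exact p = 0.125, adjusted p = 0.5625). Both of these genes were below the limit of detection, with 32, 3, 5 and 10 counts of CXCL2 against 30, 1, 0 and 4 of CXCL14. Their counting intervals overlapped in each replicate, so this order is within counting error. CXCL16 was above CXCL1 in 3 of 4, by 0.73 ± 1.30 (SD, n = 4, exact p = 0.375, adjusted p = 0.675), and in replicate 1 the ratio of CXCL16 to CXCL1 per kilobase was 0.426 (0.390 to 0.465) against 2.08 to 3.13 in the others. CXCL1 was above CCL5 in 3 of 4, by 2.04 ± 2.59 (SD, n = 4, exact p = 0.375, adjusted p = 0.675), the exception being replicate 3. CXCL10 and CXCL3 had a mean difference of 0.0098 ± 1.58 (SD, n = 4, exact p = 1), with each above the other in 2 replicates. Of all 45 pairs of members, 26 kept the same order in 4 of 4 replicates. Among the neighbouring pairs 2 did so, and the number was 4 without replicate 1 and 4 without replicate 3.

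The spread between replicates was read against all protein-coding genes. Over 4 replicates, 4 of the 7 detected members (CXCL10, CXCL11, CXCL16 and CCL5) had a range above 2, which is 4-fold on the log2(TPM + 1) scale, against 18.3% of the 12165 detected genes. Over replicates 2 to 4 the number was 2 of 7 (CXCL10 with 3.66 and CCL5 with 3.82), against 1.75% of 12075 genes, and both stood at the 99.9 percentile of all ranges. CXCL11 had a range of 1.67 over these 3 replicates, at the 95.8 percentile. CXCL1, CXCL3, CXCL16 and CCL20 lay between the 28.9 and 77.2 percentiles there. Thus the wide range of CXCL16 rested on replicate 1, while those of CXCL10 and CCL5 stayed above 2 within replicates 2 to 4. CXCL10 and CXCL11 were below a TPM of 1 in replicates 1 and 4 and passed the limit of detection only through replicates 2 and 3. A gene that passes in this way tends to have a wide range, so these counts describe the members and test nothing.

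**Figure D2:**
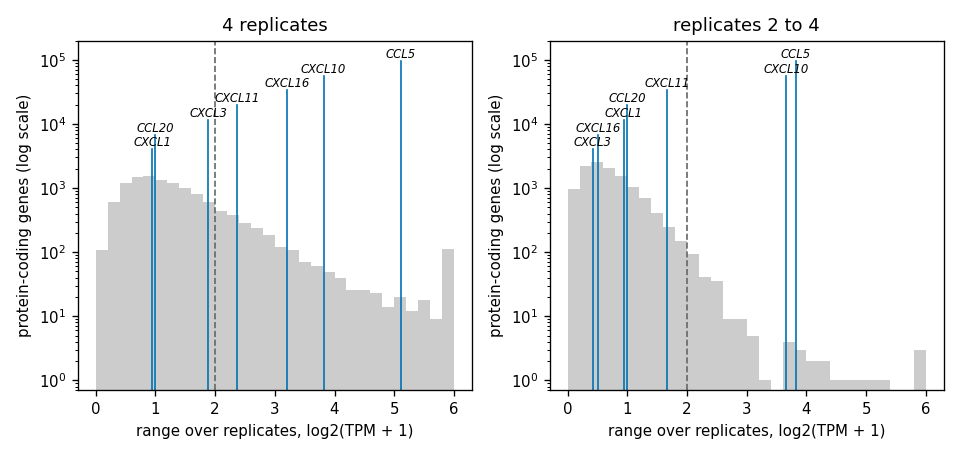
Range between the highest and the lowest replicate, in log2(TPM + 1), of protein-coding genes with a mean TPM above 1, with the number of genes on a log scale (grey bars, the last bar holding all larger ranges). Blue lines mark the detected members and the dashed line marks 2; without replicate 1 (right panel) CXCL16 moves from 3.21 to 0.52, while CCL5 and CXCL10 stay above the dashed line.

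Replicate 1 was the lowest library for 5 of the 7 detected members (CXCL3, CXCL10, CXCL11, CXCL16 and CCL5), against 37.4% of detected genes. For CXCL10 this rested on 0 counts in replicate 1 against 1 in replicate 4, so the order of these libraries is not settled for it. The difference of replicate 1 from the mean of replicates 2 to 4 was set beside that of genes of like GC content (deciles of 1189 genes), since its median over genes ran from 0.91 in the decile poorest in GC to -0.58 in the decile of CXCL16. CXCL16, with 56.0% GC, differed by -2.99 on the log2 scale, where its decile had a median of -0.58 and a 10th to 90th percentile of -2.15 to 0.67. CCL5, with 53.3% GC, differed by -3.66 where its decile had a median of -0.39. CXCL10 and CXCL11, with 37.5% and 34.5% GC, differed by -2.09 and -1.52 where their decile had a median of 0.91. CXCL3 differed by -1.71 and CXCL1 by -0.44, where their decile had a median of 0.30, and CCL20 by -0.33 in the decile of CXCL10. All 7 detected members were thus below the median of genes of like GC content. CXCL1 lay inside the 10th to 90th percentile of its decile (-1.12 to 1.24), and the others lay below the 10th percentile of theirs. For CXCL10, CXCL11 and CCL5 the mean of replicates 2 to 4 rested mainly on replicates 2 and 3, so their difference is not particular to replicate 1. The part of GC content in these differences was not tested.

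CXCL10, CXCL11 and CCL5 shared the order replicate 3, then replicate 2, then replicates 4 and 1. The first places of this order (replicate 3, then 2) were held by 7.57% of detected genes. Because the order was read from these 3 of the 7 detected members, their own count in it tests nothing. The interferon-induced genes, such as ISG15, a ubiquitin-like protein, and IFI6, an antiviral protein, were set beside them. All 18 of the list were detected, and 12 had the order replicate 3, then 2. All 18 had a range above 2 over replicates 2 to 4, against 1.75% of 12075 genes. The list was chosen with earlier results of these data known, so these counts describe it and are no independent support. The median level of the list was 9.88, 178, 194 and 10.5 TPM in replicates 1 to 4. Among detected protein-coding genes the 3 whose centred log2 profile over the 4 replicates was nearest to that of CCL5 were ISG15 (root mean square difference 0.21), CMPK2 (0.22) and OASL (0.23). ISG15 itself was at 87.4, 2711, 3177 and 179 TPM. For CXCL16 the nearest were HCFC1 (0.03), FSCN1 (0.05) and SERINC2 (0.05), and for CXCL3 they were PITX1 (0.03), RPA1 (0.05) and CSNK1G2 (0.06), each over the same 4 replicates.

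**Figure D3:**
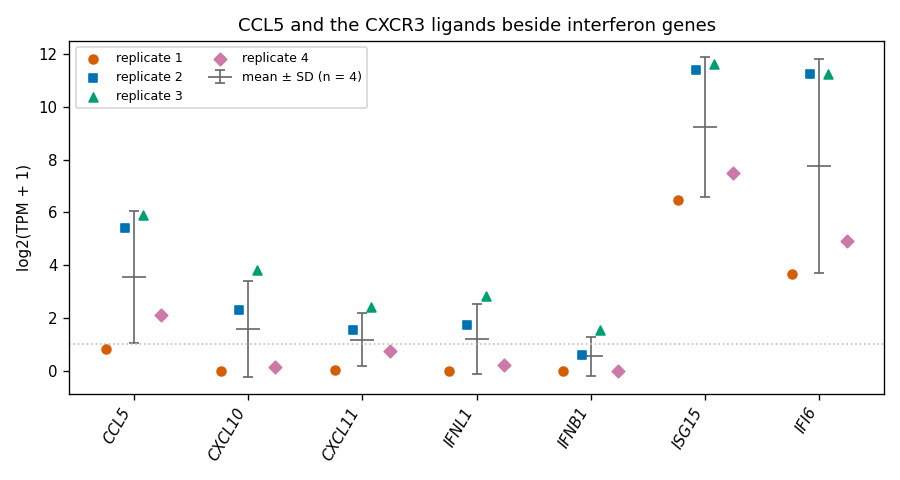
Levels of CCL5, CXCL10 and CXCL11 beside the interferon genes IFNL1 and IFNB1 and the interferon-induced genes ISG15 and IFI6, as log2(TPM + 1) in each of the 4 replicates. Points are replicates, the grey mark and bar are the mean and SD of the log2 values, and the dotted line is a TPM of 1; in all 7 genes replicates 2 and 3 are above replicates 1 and 4.

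Interferon transcripts themselves were few. IFNL1, a type III interferon of epithelial cells, was at 0, 2.28, 6.11 and 0.157 TPM from 0, 13, 47 and 1 counts. IFNB1, the type I interferon of most tissue cells, had 0, 3, 15 and 0 counts, and IFNL3 had 0, 10, 25 and 0; these genes were picked after their values were seen. IFNL2, near-identical to IFNL3 and open to shared reads with it, had 0, 12, 10 and 0 counts. Replicates 1 and 4 thus held 1 count of the 4 genes together, while between replicates 2 and 3 the order differed among them: IFNL2 was at 2.46 TPM in replicate 2 and 1.52 in replicate 3, and the ratio of replicate 3 to 2 for IFNL3 was 1.85 (0.858 to 4.31). IFNE, another interferon of the list, did not share this pattern. It was at 2.15, 1.33, 0.453 and 2.18 TPM in replicates 1 to 4, from 77, 13, 6 and 24 counts, and was lowest in replicate 3. IFNK had 0, 0, 1 and 2 counts, and IFNG had none. Of 22 genes of interferon signalling and its ligands, 18 were detected. Over replicates 2 to 4, 5 of the list had a range above 2, against 1.75% of 12075 genes. IRF7, a transcription factor that drives interferon genes, was 8.42 times higher in replicate 2 than in replicate 4 (7.72 to 9.21).

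Replicates 3 and 2 were then compared directly, a comparison chosen after the values were seen. CXCL10 was 3.31 times higher in replicate 3 than in replicate 2 (2.24 to 5.01), CXCL11 2.29 times (1.37 to 4.01) and CCL5 1.43 times (1.26 to 1.63). In the 18 interferon-induced genes the same ratio had a median of 1.06 and ran from 0.296 to 1.74, so the interval of CXCL10 lay above all 18 values. Those of CXCL11 and CCL5 overlapped the range of the list. A level in replicate 3 above that in replicate 2 by more than 1 on the log2(TPM + 1) scale was found in 1 of the 7 detected members, CXCL10, and in 0.501% of detected genes. IFNL1 had a ratio of 2.67 (1.42 to 5.39) and IFNB1 of 3.70 (1.05 to 19.9), from few counts. CXCL1 and CXCL16 went the other way, at 0.613 (0.533 to 0.705) and 0.697 (0.659 to 0.738).

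**Figure D4:**
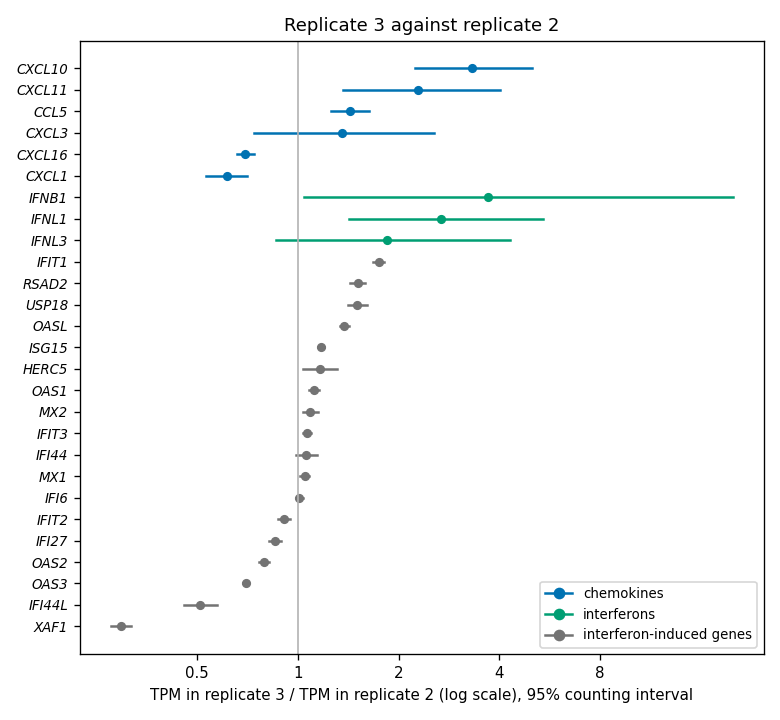
Ratio of the TPM in replicate 3 to that in replicate 2 on a log axis, for 6 chemokines (blue), 3 interferons (green) and 18 interferon-induced genes (grey); lines are 95% counting intervals and the vertical line is a ratio of 1. CXCL10, at 3.31, lies to the right of all 18 interferon-induced genes, whose highest ratio is 1.74.

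The order replicate 3, then 2, was held by 1 of 15 listed genes of the NF-κB response and its control, NFKBIE (9.52, 30.0, 35.7 and 28.5 TPM, picked after its values were seen), against the 7.57% of detected genes given above. All 15 were detected, and 8 had a range above 2 over 4 replicates, against 18.3% of detected genes. Over replicates 2 to 4 the number was 0, against 1.75% of 12075 genes, so 0 in a list this short is near the share of all genes. BCL3, a nuclear cofactor of NF-κB, was at 1.94, 70.8, 43.9 and 58.1 TPM, and TNFAIP3, the inhibitor A20, at 17.0, 141, 54.6 and 64.0. Both were lowest in replicate 1, as CXCL16 was. Of 18 cytokines and receptors known to induce chemokines 12 were detected. A range above 2 was found in 4 over 4 replicates and in 0 over replicates 2 to 4, beside the same shares of 18.3% and 1.75%. IL1B, an early inducer of CXCL1 and CXCL8, was at 3.93, 92.9, 64.8 and 61.1 TPM, and IL6 at 0.727, 15.8, 12.0 and 5.08. CXCL1 and CXCL8 did not show this low level in replicate 1. Of 9 RNA-binding factors that control the stability of inflammatory mRNAs, destabilizers such as ZFP36 as well as the stabilizers ELAVL1 and ARID5A, all 9 were detected. A range above 2 was found in 5 over 4 replicates and in 0 over replicates 2 to 4, beside 18.3% and 1.75% of all genes. Among them ZFP36 (tristetraprolin) was at 5.43, 50.2, 33.7 and 38.3 TPM.

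Markers of leukocytes, which also make several of these chemokines, were set beside the members. Of 12 leukocyte markers 3 were detected (CD68, CD74 and CD14), and the summed TPM of the list was 14.3, 74.7, 52.1 and 50.6 in replicates 1 to 4. PTPRC, the pan-leukocyte CD45, had 3, 0, 0 and 0 counts, the T cell gene CD3E had 13, 0, 0 and 0, and the B cell gene MS4A1 had none. Of the 3 detected markers, CD68, which other cells also express, was at 7.94, 43.9, 38.2 and 16.1 TPM, highest in replicates 2 and 3 as CCL5 was. CD74, at 2.01, 21.1, 7.88 and 23.6 TPM, and CD14, at 3.03, 8.08, 4.99 and 8.92 TPM, were highest in replicate 4, unlike CCL5. CSF1R had 0, 12, 5 and 2 counts and ITGAM had 4, 20, 13 and 16. The part of these markers in the chemokine levels was not tested. The fibroblast list had 2 of 7 genes detected and sums of 5.20 to 9.70 TPM, the endothelial list had 0 of 6, with sums of 0.962 to 2.38, and the melanocyte list 2 of 7, with sums of 3.97 to 9.16.

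The rest of the chemokine system was mostly below a mean TPM of 1. Of 10 other CXC chemokines 2 were detected, CXCL8 and CXCL6, and 3 had no count in any replicate. Of 24 other CC and C chemokines 5 were detected, and 11 had no count. CCL2, the main attractant of monocytes, was at 18.6, 34.5, 59.0 and 213 TPM, with a mean of 81.3 ± 89.4 (SD, n = 4), between those of CXCL16 and CXCL1. It was highest in replicate 4, 3.61 times above replicate 3 (3.22 to 4.06), unlike CCL5 and CXCL10. CCL26 was at 1.61, 6.42, 3.76 and 3.58 TPM and CCL17 at 7.09, 2.69, 0.905 and 0.873, both ligands linked to allergic inflammation.

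Of the 18 classical chemokine receptors 1 was detected, CCR10, the receptor for skin and mucosal T cell homing, at 1.69, 4.35, 2.41 and 5.07 TPM. A count of at most 3 in each replicate was found for 12 of the 18. CX3CR1, the receptor for CX3CL1, had 0 counts in all 4 replicates, which allows up to 3 counts in each library. CXCR3 had 0, 1, 0 and 1 counts, CCR6 had 0, 0, 1 and 1, and CXCR6 had 0, 6, 1 and 1. CXCR2 had 29, 9, 3 and 1 counts. The atypical receptor ACKR3, which binds CXCL11 and CXCL12 and removes them, was at 42.6, 13.6, 5.98 and 17.7 TPM, and the other 5 atypical receptors were not detected. The classical receptors of the members were thus below the limit of detection used here, and ACKR3 was above it.

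The proteases that act on the membrane-anchored chemokines were present. ADAM10, the main constitutive sheddase of CXCL16 and CX3CL1, was at 122, 99.1, 43.6 and 126 TPM, and ADAM17, the inducible sheddase of CX3CL1, at 39.9, 36.7, 22.2 and 37.5. RHBDF2, the iRhom partner that brings ADAM17 to the surface, was at 4.18, 51.2, 26.7 and 45.5 TPM, low in replicate 1 like CXCL16. Of 11 chemokine-processing proteases and partners 8 were detected. A range above 2 was found in 2 over 4 replicates, against 18.3% of detected genes, and in 0 over replicates 2 to 4, against 1.75%. Transcript levels do not measure shedding, and no protein was measured in these files.

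**Figure D5:**
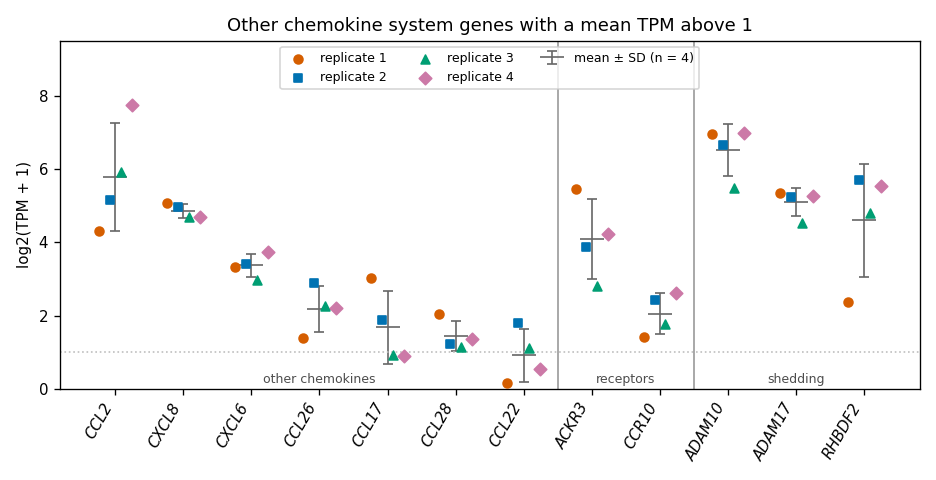
Other chemokines, chemokine receptors and genes of shedding with a mean TPM above 1, as log2(TPM + 1) in each of the 4 replicates. Points are replicates, the grey mark and bar are the mean and SD of the log2 values, and the dotted line is a TPM of 1; CCL2 reaches its highest level in replicate 4, and 2 receptors, ACKR3 and CCR10, pass the limit.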

How the data were processed

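RNA-seq was performed on 4 replicates of untreated HaCaT cells. The authors deposited raw counts per gene, with gene lengths and positions, RPKM for replicates 1 and 2 and TPM for replicates 3 and 4. The submitters' processing notes name hg19, HISAT2, TopHat2, Bowtie2 and HISAT; their roles, the counting program, its use of strand and the RNA selection are not given in the sources used here. The serum share differs between labels and methods. The deposited RPKM and TPM were recomputed from the deposited counts and lengths and matched within 0.1% for all genes.

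Because the deposited units differ, TPM was computed for all replicates over 19233 protein-coding genes. With a single group no test of differential expression was run. Neighbouring members were compared within replicates by an exact two-sided permutation of signs, and count ratios have 95% Clopper-Pearson intervals. The members, gene lists and tests were chosen with earlier results of these data known. Named were all members, in each list the 3 highest genes and 3 widest ranges among detected genes, and the 3 nearest profiles of members with a range above 1 and more than 3 counts in every replicate; any further gene was picked with its values in view. The GC content came from GENCODE 29 (97.7% of detected genes) and promoters from RefSeq (GRCh38.p14), while gene positions are those of the files. Only the rule for a range above 2 was tested on simulated libraries, none of which differed from the rest as replicate 1 does. Other scalings (edgeR TMM, median of ratios, upper quartile), units, pseudocounts, limits, lengths and left-out replicates were tried. R 4.3.3, edgeR 4.0.16, Biopython 1.88, matplotlib 3.10.9, SciPy 1.17.1, pandas 2.3.3, NumPy 2.4.6 and Python 3.11.15 were used.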

Additional observations from a re-analysis of the deposited data

How the results depend on the processing

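The number of detected members was 7, and 6 to 10 under the alternatives run. The number of members with a range above 2 was 4, and from 2 (without replicate 1) to 4 when replicates were left out, and 5 with TPM over all genes and with a pseudocount of 0.1. The number of neighbouring pairs with the same order in every replicate was 2, and from 2 to 4 when replicates were left out. The difference CXCL10 minus CXCL3 was 0.0098 on the log2 scale, -0.75 with a pseudocount of 0.1, -0.044 with the longest GENCODE transcript as gene length (chosen after seeing the data) and from -0.57 to 0.68 with replicates left out, negative without replicate 2 (-0.18) and without replicate 3. CXCL11 minus CCL20 was 0.14, -0.21 with a pseudocount of 0.1 and from -0.24 to 0.47 with replicates left out, negative without replicate 2 (-0.12) and without replicate 3. CXCL14 minus CX3CL1 was 0.13, and from -0.061 (without replicate 1) to 0.27 with replicates left out. The causes were not tested. With TPM over all genes the range of CXCL1 was 2.34, and the range of CXCL11 fell to 1.67 without replicate 1 and to 1.49 without replicate 3. Of the levels, 98 moved by less than the SD between replicates, though some crossed a TPM of 1: CCL20 was at 0.917 with TPM over all genes and 0.819 without replicate 4, and CXCL11 at 0.856 without replicate 3. CXCL14 was at 0.128 with TPM over all genes, and CX3CL1 at 0.0735 with the longest GENCODE transcript and 0.0582 without replicate 2. Of the neighbour differences 91 kept their direction and 8 reversed. Of the ranges 66 kept their side of the limit of 2, 1 rose above it and 3 fell below it. Coding length from a protein table was not run. No paired analysis was possible because the series has a single group. Values from 3 counts or fewer are at the limit of depth.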
